A study of Mus musculus with 12 samples.

Results

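Messenger RNA of the striatum was compared between the 2 arms of mice that had transient middle cerebral artery occlusion (tMCAO, a stroke model in which the artery that feeds the striatum is blocked and reopened) and were given SN-011, a small molecule that antagonises the innate immune adaptor STING. The arms were told apart by library title: 3 libraries carry the prefix 3d (the 3d arm) and 3 carry SN011 without a prefix (the SN-011 arm), so 6 of the 12 libraries of the series enter the comparison. The labels give both arms the treatment tMCAO+SN-011, the strain C57BL/6J and the tissue striatum. The other two arms, sham surgery with PBS (sham+PBS) and occlusion with PBS (tMCAO+PBS, called vehicle here), have 3 libraries each of the same strain and tissue and serve as reference levels. The labels do not define 3d, the dose, the route or the time of sampling, so time after occlusion, dosing and the piece of tissue taken cannot be told apart as the source of a difference between the arms. No PBS arm carries the 3d prefix. The labels also do not say that the libraries of an arm came from separate mice, so p-values measure a spread between libraries that may be technical. That spread was estimated over all 12 libraries, the sham and vehicle arms included.

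STING is an adaptor in the membrane of the endoplasmic reticulum. The enzyme cGAS makes a cyclic dinucleotide when it meets DNA in the cytosol, the dinucleotide activates STING, and STING recruits the kinase TBK1, which phosphorylates the transcription factor IRF3 and leads to type I interferon and interferon-stimulated genes. In the brain the pathway is best known in microglia, the resident macrophages. The striatum consists mostly of inhibitory projection neurons with D1 or D2 dopamine receptors, with a few classes of interneurons, and it lies in the core of the territory that loses blood flow in this model.

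The 6 libraries held between 17178178 and 18622053 counts assigned to genes, and the 12 between 15806076 and 18622053. The first principal component of log2 CPM (counts scaled to library size with TMM factors) took 70.6% of the variance and the second 7.15%. On the first, SN-011 replicates 1 and 2 lay at -18.3 and -38.2, SN-011 replicate 3 at 30.8, and 3d replicates 1, 2 and 3 at 144.9, 108.1 and 107.0. SN-011 replicate 3 thus stood apart from its own arm, on the side of the 3d arm, and 3d replicate 3 stood apart on the second component, at 66.5. Of the genes called between the arms, 4.15%, 1.10% and 31.3% lay nearer to the 3d mean than to the sham mean in SN-011 replicates 1, 2 and 3. Because these genes were chosen for a difference between the arms in the same libraries, low shares follow in part from that choice. The cause of the position of SN-011 replicate 3 was not tested, and the results below are given with and without it where its part is large. No library was a copy of another: within an arm every pair differed beyond counting noise, with a chi-square per degree of freedom of 13.9 to 57.3 in the SN-011 arm and 47.2 to 78.2 in the 3d arm.

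**Figure D1:**
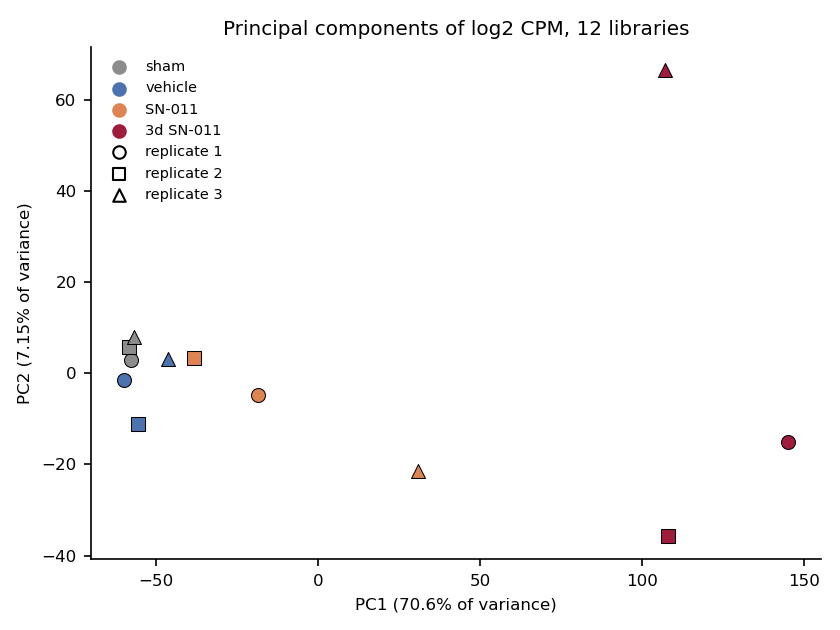
First (70.6% of variance) against second (7.15%) principal component of log2 CPM over the genes tested, 1 point per library, colour for the arm and marker shape for the replicate number. The 3 libraries of the 3d arm lie at 107.0 or above on the first component, and SN-011 replicate 3 lies at 30.8, between its own arm and the 3d arm.

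Promoter sequences of members of 3 gene lists were read, because most or all members of each list were called in 1 direction between the arms. In the sequences below the capitals mark 1 match to a motif, and a gene can hold others. Every stretch lies upstream of an annotated start on the strand of the gene (RefSeq, GRCm38.p6). The interferon-stimulated response element core, GAAANNGAA on either strand, is the kind of site bound by interferon regulatory factors. It is shown for genes encoding an antiviral protein with tetratricopeptide repeats, a surface tether of budding virus and an oligoadenylate synthetase:
Ifit3, chr19:34583363-34583461, plus strand: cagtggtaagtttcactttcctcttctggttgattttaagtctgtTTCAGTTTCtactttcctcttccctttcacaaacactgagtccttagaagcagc
Bst2, chr8:71537549-71537647, minus strand: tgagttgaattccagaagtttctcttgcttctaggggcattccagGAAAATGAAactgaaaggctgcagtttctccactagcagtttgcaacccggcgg
Oas1a, chr5:120907526-120907590, minus strand: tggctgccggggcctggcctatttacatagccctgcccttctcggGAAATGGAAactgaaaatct
The cell cycle homology region, TTTGAA on either strand, is a site of the complexes that repress and then activate mitotic genes. Cdk1 holds a match that begins 71 bases before the start and another that begins 15 bases before it, and only the farther is shown. The motif is shown for the mitotic kinase and for a ubiquitin-conjugating enzyme of the anaphase-promoting complex:
Cdk1, chr10:69352933-69353028, minus strand: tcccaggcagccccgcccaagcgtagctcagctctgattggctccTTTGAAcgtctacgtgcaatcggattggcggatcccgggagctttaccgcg
Ube2c, chr2:164769855-164769928, plus strand: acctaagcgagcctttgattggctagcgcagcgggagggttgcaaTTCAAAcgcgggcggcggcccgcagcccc
The full cAMP response element, TGACGTCA, is shown for an orphan receptor of D2 projection neurons:
Gpr6, chr10:41072316-41072413, minus strand: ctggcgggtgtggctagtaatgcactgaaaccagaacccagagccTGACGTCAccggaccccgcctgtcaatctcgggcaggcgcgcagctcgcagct
Shares were counted in windows of 1 common length for all genes, longer than the stretches shown, which also cover bases after the annotated start. In these windows GAAANNGAA was present in 2812 of 32851 (8.56%), TTTGAA in 5878 (17.89%) and TGACGTCA in 588 (1.79%). Of the interferon-stimulated genes tested, 33 of 46 matched a window, and 21 of their 38 windows (55.26%) held GAAANNGAA. Of the cell cycle genes, 29 of 36 matched, and 13 of 31 windows (41.94%) held TTTGAA. For Aurka, Cenpa, Plk1 and Kif23 the only match lay after the start, as it did for the interferon-stimulated genes Ddx58 and Ifitm3. Of the projection neuron genes, 25 of 31 matched, and 1 of 48 windows (2.083%), that of Gpr6, held TGACGTCA. A match describes the letters in the window and does not show a bound site.

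Across the 18537 genes tested, 8607 were called between the arms at an adjusted p under 0.05, which is 46.4% of genes (edgeR's quasi-likelihood test, two-sided, Benjamini-Hochberg over all genes tested). Of these, 4367 were higher in the 3d arm (23.6% of genes tested) and 4240 were lower (22.9%). Without SN-011 replicate 3 the same fit called 8927 (46.7%), without 3d replicate 2 it called 8429 (44.4%), without SN-011 replicate 2 it called 6310, and the fit of the 6 libraries alone called 5831. The median log2 fold change, 3d over SN-011, was 0.028 over all genes, with quartiles at -0.504 and 0.599, and 4437 called genes changed by at least 1 on the log2 scale. The 3 libraries of one arm lay wholly above or below the 3 of the other for 9315 genes (50.3%), of which 4552 (24.6%) were higher and 4763 (25.7%) lower in the 3d arm. Every count for a list below is to be read against these shares. Values in CPM are given in the order of replicates 1, 2 and 3 of an arm, the SN-011 arm first, and each log2 fold change (3d over SN-011) is followed by its standard error. Intervals are 95% intervals of that log2 fold change. Where a call was lost without a library, the number after that library is the adjusted p without it. Positions are whole gene spans on GRCm38.

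**Figure D2:**
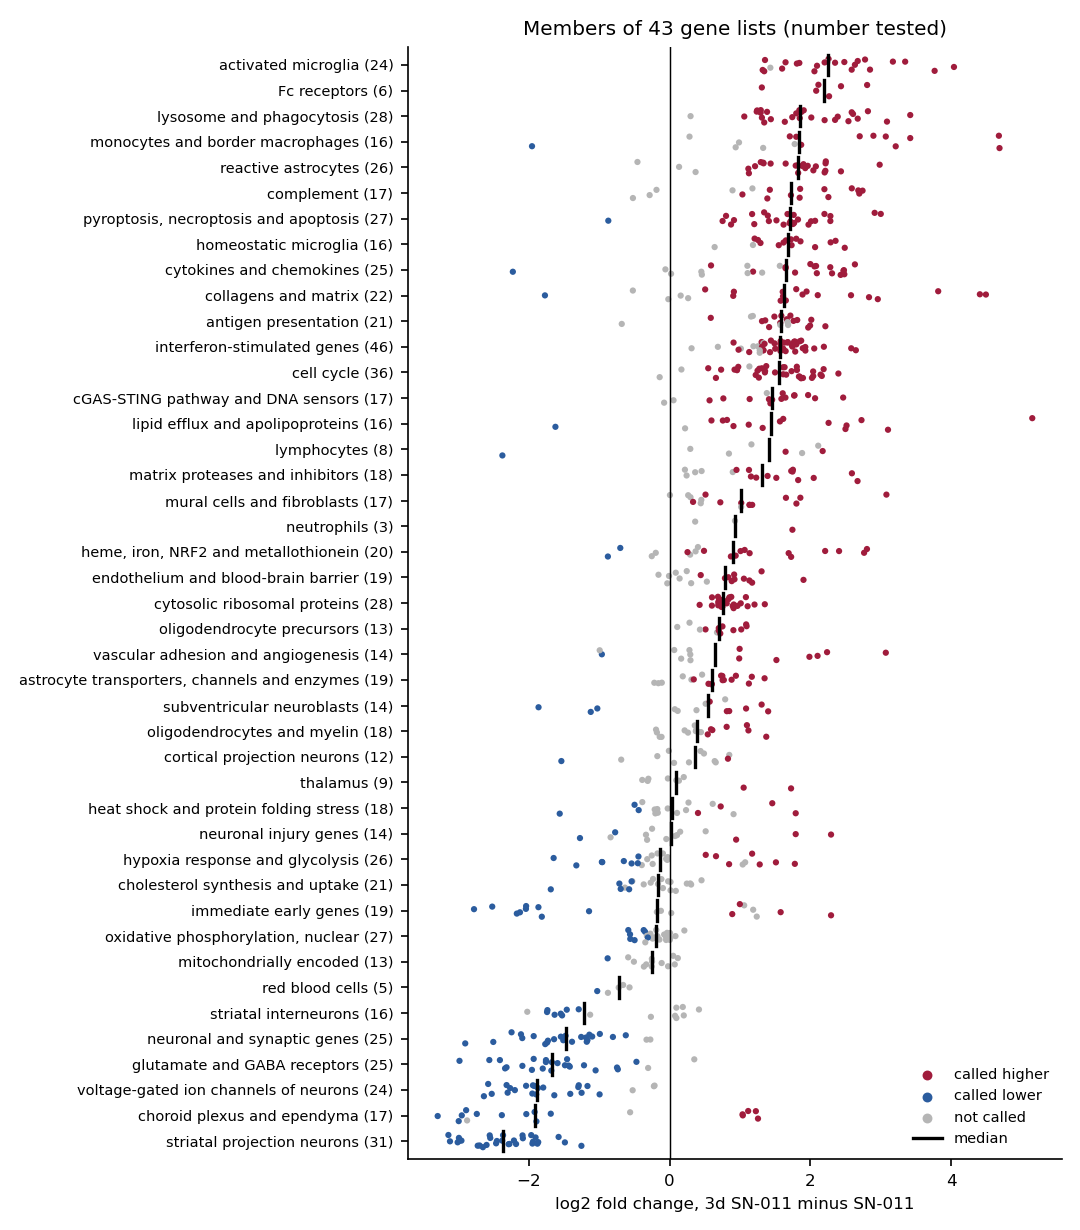
Log2 fold change, 3d over SN-011, of each tested member of the 43 gene lists (points), with the median of each list as a bar and colours for members called higher, called lower or not called. The lists of projection neurons, synapses, channels and receptors lie to the left of 0, with medians between -2.36 and -1.48, and most lists of microglia, lysosome, cell cycle and astrocyte response lie to the right.

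Genes of striatal projection neurons were lower in the 3d arm without exception: 31 of 31 tested members fell, against 22.9% of all genes, and all 31 had arms that did not overlap. Their median log2 fold change was -2.36, and the changes ran from -3.14 to -1.25. Averaged over the list, levels lay at -0.13, 0.04 and -0.69 relative to sham on the log2 scale in the SN-011 libraries and at -4.07, -2.27 and -2.10 in the 3d libraries. The SN-011 arm was thus close to sham apart from replicate 3, and 3d replicate 1 was lowest. The defining genes of the labelled tissue were present in all 6 libraries. In bulk tissue, fewer cells of a type and less RNA per cell cannot be told apart, here and in every list below.

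Bcl11b (chr12:107910403-108003602, encoding the transcription factor CTIP2, which specifies these neurons) stood at 449.6, 497 and 294 CPM in the SN-011 arm and at 40.5, 86.6 and 97.8 CPM in the 3d arm, with a sham mean of 522 ± 17.0 CPM (SD, n = 3). All 3d values were below all SN-011 values, and Bcl11b fell by 2.46 on the log2 scale (SE 0.28, adjusted p = 9.89e-05). Drd1 (chr13:54051183-54055705), the D1 dopamine receptor, was at 259.6, 322 and 190.4 CPM against 9.52, 55.8 and 75.9 CPM, a log2 fold change of -2.45 ± 0.50 (adjusted p = 0.00186). Drd2, the D2 receptor, was at 343, 353 and 196 CPM against 16.2, 66.1 and 69.5 CPM, -2.55 ± 0.41 (adjusted p = 4.80e-04). Receptors of both classes of projection neuron were thus lower in each 3d library than in any SN-011 library. Chrm4, the M4 muscarinic receptor, changed by -2.70 ± 0.32 (adjusted p = 1.09e-04). Ano3, an anoctamin enriched in striatum, changed by -3.12 ± 0.39 (adjusted p = 1.38e-04). Pde10a, the phosphodiesterase that sets cyclic nucleotide levels in these cells, went from 1995, 2489 and 1245 CPM to 68.7, 312 and 339.5 CPM. Adora2a, which encodes an adenosine receptor of D2 neurons, was at 439, 427 and 225 CPM in the SN-011 arm and 16.2, 58.9 and 90.1 CPM in the 3d arm. Among neuropeptide precursors, Penk changed by -1.95 ± 0.56 (adjusted p = 0.0125) and Tac1 by -1.87 ± 0.51 (adjusted p = 0.00962). In the fit of the 6 libraries alone these 2 precursors had adjusted p of 0.0632 and 0.0539.

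Interneuron genes were less uniform. Of 16 tested, 7 fell and none rose, with a median of -1.21. Nos1, nitric oxide synthase of one interneuron class, was at 82.4, 91.4 and 68.8 CPM against 19.8, 35 and 29.4 CPM (-1.53 ± 0.19, adjusted p = 1.28e-04), and every 3d value was below the SN-011 values. Chat, the enzyme that makes acetylcholine in cholinergic interneurons, was at 22.6, 26.8 and 20.2 CPM against 1.38, 10.8 and 8.67 CPM (-1.73 ± 0.45, adjusted p = 0.00751, or 0.0509 in the fit of 6 libraries). Kit and Pthlh changed by -1.29 ± 0.23 and -1.46 ± 0.28 (adjusted p = 8.60e-04 and 0.00137). Transcripts of 2 neuropeptides of interneurons overlapped between the arms. Npy was at 23.3, 21.9 and 18.7 CPM against 13.8, 23.7 and 29.9 CPM, and the 95% interval of its log2 fold change ran from -0.46 to 0.61. Sst was at 107, 102 and 92.7 CPM against 45.5, 104 and 101 CPM, with an interval from -0.80 to 0.27. For both peptides 3d replicate 1 was the low library.

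Genes shared by most neurons also fell. Of 25 neuronal and synaptic genes, 23 were lower and none higher (median -1.48), of 24 voltage-gated channels 21 were lower and none higher (median -1.88), and of 25 glutamate and GABA receptor genes 23 were lower and none higher (median -1.67). Homer1, a scaffold of the postsynaptic density, was at 292, 385 and 192 CPM against 39.2, 67.1 and 47.2 CPM (-2.5 ± 0.25, adjusted p = 6.99e-05). Shank3, another scaffold, was at 684, 709.7 and 379 CPM against 103, 119.6 and 152 CPM (-2.24 ± 0.23, adjusted p = 7.30e-05). Nefl (chr14:68083863-68089095), the light neurofilament subunit, was at 148, 168 and 79.8 CPM against 32.4, 35.1 and 36.4 CPM (-1.93 ± 0.22, adjusted p = 1.05e-04). None of these 3 overlapped between arms, and in each of them SN-011 replicate 3 was the lowest SN-011 library. Stx1a, a syntaxin of the vesicle fusion machinery, overlapped between the arms, with an interval from -0.96 to 0.42.

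Scn2b, a sodium channel beta subunit, changed by -2.53 ± 0.26 (adjusted p = 6.99e-05), the potassium channel gene Kcnq3 by -2.26 ± 0.23 (adjusted p = 7.30e-05) and the sodium channel gene Scn8a by -1.79 ± 0.19 (adjusted p = 7.35e-05). Kcnc2, a fast potassium channel subunit, was at 9.42, 13.7 and 8.82 CPM against 9.01, 9.59 and 8.94 CPM, which overlapped. Gabrb2, a GABA-A receptor subunit, was at 50.9, 75.3 and 52.6 CPM against 7.06, 13.6 and 14.7 CPM (-2.34 ± 0.23, adjusted p = 6.99e-05). It lay lower in every 3d library. Grm3, a metabotropic receptor that astrocytes also express, was at 75.2, 78.4 and 64.7 CPM against 49.7, 92.3 and 34.6 CPM and was not called (adjusted p = 0.353), while without 3d replicate 2, its highest library, the log2 fold change was -0.79 (adjusted p = 0.00211).

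Immediate early genes, which neurons switch on within minutes of firing, split. Of 19 tested, 9 fell and 4 rose, with a median of -0.18 that became 0.02 without 3d replicate 2 and -1.10 without 3d replicate 3. The share that rose was near the 23.6% of all genes tested, and the share that fell was above the 22.9%. The members that fell included the 4 early growth response genes of the list, Egr1 to Egr4, whose products are zinc finger transcription factors. Egr4 (chr6:85511121-85513589) was at 63.7, 69.0 and 59.6 CPM against 7.63, 12.9 and 13 CPM (-2.52 ± 0.20, adjusted p = 3.79e-05), with no overlap. Egr3 changed by -2.78 ± 0.31 (adjusted p = 9.20e-05) and Egr1 by -2.17 ± 0.26 (adjusted p = 1.13e-04). Npas4, which responds to calcium entry in neurons, changed by -2.12 ± 0.29 (adjusted p = 2.26e-04). Nr4a3, an orphan nuclear receptor, was at 14.7, 18.7 and 24.7 CPM against 7.22, 7.12 and 12 CPM (-1.14 ± 0.22, adjusted p = 0.00116), with a vehicle mean of 58.4 ± 4.58 CPM (SD, n = 3). The members that rose included Jun, at 39.5, 33.5 and 44.5 CPM against 101, 73.9 and 60.1 CPM (1.00 ± 0.20, adjusted p = 0.00168), and Ier2, at 4.28, 5.44 and 4.82 CPM against 16.4, 8.25 and 18.8 CPM (1.58 ± 0.30, adjusted p = 0.00114). Fos, the classical activity marker, was at 10.9, 12.9 and 31.1 CPM against 30.3, 40.4 and 44.0 CPM and was not called (adjusted p = 0.0609). SN-011 replicate 3 lay within the 3d range, and without that replicate the adjusted p was 0.00535. Junb was at 71.6, 86.0 and 98.5 CPM against 80.4, 72.6 and 108 CPM, with an interval from -0.46 to 0.50.

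Of 14 genes of injured neurons, 3 rose and 2 fell, against 46.4% of all genes called in either direction, with a median of 0.02. Atf3, a stress-induced transcription factor that the immediate early list also holds, was at 2.95, 3.33 and 8.44 CPM against 34.5, 15.77 and 22.2 CPM, from a sham mean of 0.787 ± 0.319 CPM (SD, n = 3). All 3d libraries were above the SN-011 libraries (2.29 ± 0.48, adjusted p = 0.00210). The growth cone gene Gap43 changed the other way, by -0.77 ± 0.18 (adjusted p = 0.00434), and so did Ecel1, by -1.27 ± 0.22 (adjusted p = 6.61e-04).

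**Figure D3:**
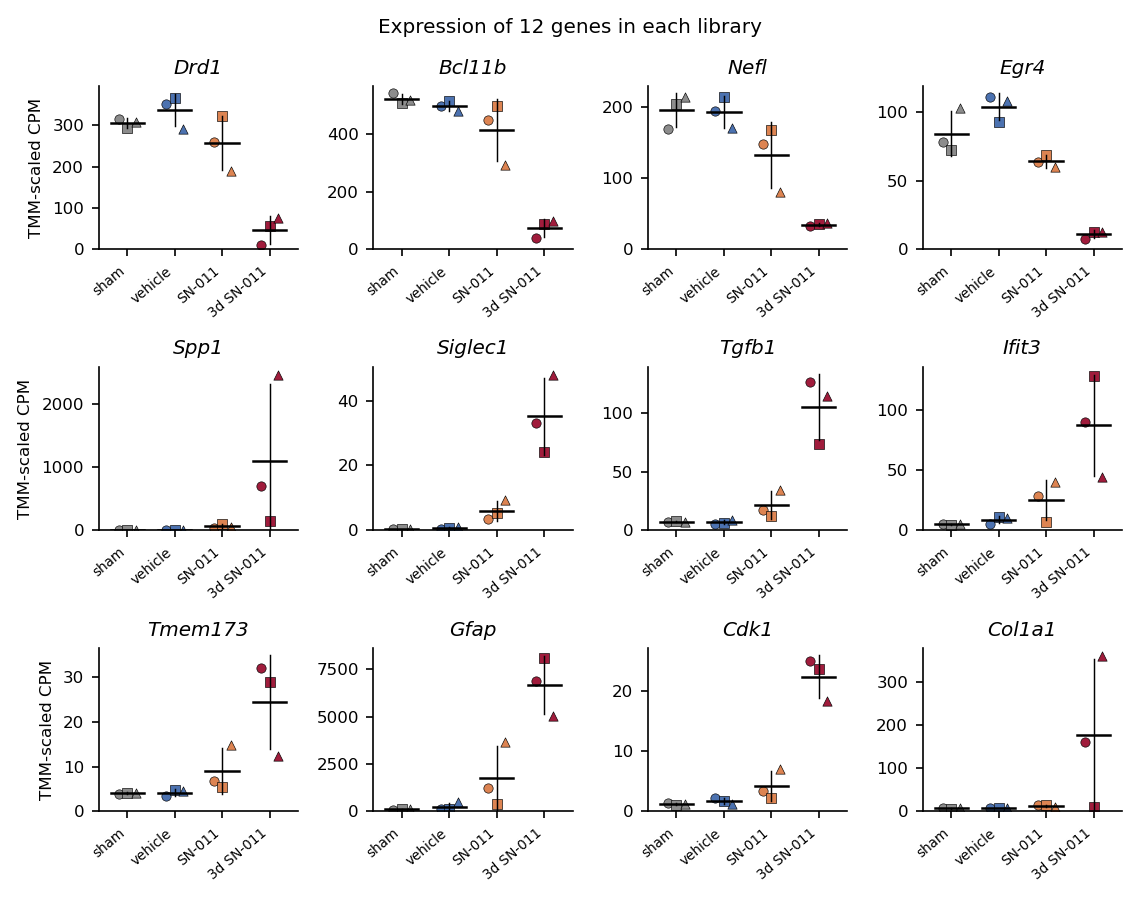
CPM in each library of the 4 arms for 12 genes, 1 panel per gene with its own linear axis from 0, points for libraries, a line for the arm mean and a bar for 1 SD (cut at 0). Drd1, Bcl11b, Nefl and Egr4 lie lower in all 3 3d libraries than in any SN-011 library, Spp1, Siglec1, Tgfb1, Ifit3, Gfap and Cdk1 lie higher, and Tmem173 and Col1a1 overlap in 1 3d library.

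Microglial genes went the other way. Of 16 genes of resting microglia 14 rose and none fell (median 1.69), and of 24 genes of activated microglia 22 rose and none fell (median 2.25), against 23.6% higher among all genes. Relative to sham, the activated list lay at 1.73, 1.48 and 3.35 on the log2 scale in the SN-011 arm and at 5.03, 4.36 and 4.75 in the 3d arm. The SN-011 arm was already above sham, most of all in replicate 3. Without SN-011 replicate 3 the numbers higher were 15 of 16 and 24 of 24, against 23.9% of all genes in that fit. Without SN-011 replicate 1 or SN-011 replicate 2 they were 13 and 21, and in the fit of the 6 libraries alone 13 and 19. Without SN-011 replicate 3 and 3d replicate 2 together, a setting chosen after the data were seen, the activated median was 3.53.

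Tmem119, a membrane protein used to tell microglia from other macrophages, was at 39.3, 32.4 and 58.0 CPM against 172, 119 and 108 CPM (1.62 ± 0.24, adjusted p = 3.06e-04), with a sham mean of 22 ± 3.14 CPM (SD, n = 3). Csf1r (chr18:61100598-61132149), the growth factor receptor microglia need to survive, was at 214, 156 and 470.3 CPM against 1084, 1011 and 683 CPM (1.73 ± 0.32, adjusted p = 0.00111). Aif1, which encodes IBA1, changed by 2.36 ± 0.42 (adjusted p = 8.60e-04). All 3 genes were separated between the arms. P2ry12, the ADP receptor of surveying microglia, was at 42.5, 37.5 and 85.0 CPM against 156, 194 and 54.4 CPM, so that 3d replicate 3 lay within the SN-011 range. It was called (1.29 ± 0.38, adjusted p = 0.0144) but not without 3d replicate 2 (0.0671), SN-011 replicate 1 (0.0651) or SN-011 replicate 2 (0.0666).

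Spp1 (chr5:104435118-104441050), osteopontin, a secreted matrix protein of phagocytes, had the largest change of the activated list. It was at 43.2, 98.4 and 59.6 CPM against 699, 149.7 and 2462 CPM, from a sham mean of 3.55 ± 0.463 CPM (SD, n = 3). The 3d libraries spread widely, with replicate 3 highest and replicate 2 lowest, and all lay above the SN-011 arm (4.04 ± 0.75, adjusted p = 0.00102, or 2.66 without 3d replicate 3). Gpnmb, a glycoprotein of lipid-laden phagocytes, was at 31.1, 52.9 and 53.9 CPM against 553, 97.6 and 1226 CPM (3.77 ± 0.70, adjusted p = 0.00102), with the same order of the 3d libraries. Lyz2, a lysozyme of macrophages, was at 41.6, 44.0 and 129.9 CPM against 1052, 333 and 808 CPM (3.35 ± 0.50, adjusted p = 3.22e-04). Lgals3, galectin-3, changed by 2.85 ± 0.49 (adjusted p = 6.79e-04). Trem2, the lipid-sensing receptor that drives this activation state, was at 34.8, 24.7 and 142 CPM against 458, 342 and 333 CPM (2.49 ± 0.50, adjusted p = 0.00158). The 2 members not called were Itgax and Cst7. Cst7, a cysteine protease inhibitor, was at 1.96, 2.57 and 48.6 CPM against 121, 111 and 20.8 CPM, and SN-011 replicate 3 exceeded 3d replicate 3 (adjusted p = 0.0734, or 1.94e-04 without SN-011 replicate 3). Itgax, the integrin CD11c, had adjusted p of 0.0706 and, without SN-011 replicate 3, of 0.00161.

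Genes of monocytes and of macrophages at the brain's borders showed 10 of 16 higher and 1 lower (median 1.83). Msr1, a scavenger receptor, was at 1.73, 2.98 and 2.96 CPM against 23.3, 8.55 and 50.5 CPM (3.42 ± 0.54, adjusted p = 4.28e-04), with no overlap. Cd163, a haemoglobin receptor of border macrophages, was the member that fell, from 12.7, 12.9 and 7.23 CPM to 0.870, 2.62 and 5.01 CPM (-1.95 ± 0.43, adjusted p = 0.00306). Ly6c2 and Ccr2, defining genes of blood monocytes, were low throughout: Ly6c2 was at 1.56, 0.234 and 1.92 CPM against 3.79, 3.11 and 0.485 CPM and was not called, and Ccr2 was at 1.68, 0.877 and 0.658 CPM against 5.78, 3.81 and 0.916 CPM. Ccr2 was called (adjusted p = 0.0445) but not without 3d replicate 1 (0.194), 3d replicate 2 (0.0846), SN-011 replicate 2 (0.130) or SN-011 replicate 3 (0.119).

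Of 12 neutrophil genes 3 passed the filter on low counts and 1 rose, and of 18 lymphocyte genes 8 passed, 2 rose and 1 fell. As single libraries were left out, the lymphocyte members higher numbered 1 without 3d replicate 1, 3d replicate 2, SN-011 replicate 1 or SN-011 replicate 2, 5 without 3d replicate 3 and 4 without SN-011 replicate 3. S100a9, a defining neutrophil gene, was at 0.289, 0.234 and 0.219 CPM against 0.307, 0.741 and 0.377 CPM and was not called. Of the 9 members below the filter, Mmp8, a neutrophil collagenase, had 4, 1 and 2 counts in the SN-011 libraries and 67, 7 and 77 in the 3d libraries, S100a8, the partner of S100a9, had 3, 4 and 2 against 6, 25 and 34, and the other 7 had at most 12 in any of these libraries. The neutrophil member that was called, Csf3r, is a receptor that microglia also express. It was at 29.8, 19.1 and 101 CPM against 231, 194 and 77.8 CPM, so that SN-011 replicate 3 exceeded 3d replicate 3 (1.75 ± 0.51, adjusted p = 0.0133, or 0.0621 without SN-011 replicate 1 and a log2 fold change of 2.77 without SN-011 replicate 3). Cd3e, part of the T cell receptor complex, did not pass the filter, with 4, 3 and 8 counts in the SN-011 libraries and 65, 25 and 3 in the 3d libraries. Trac, the constant part of the T cell receptor alpha chain, was at 0.924, 0.702 and 1.53 CPM against 6.60, 2.67 and 0.700 CPM, called at adjusted p = 0.0437 but not without 3d replicate 1 (0.353, log2 fold change 0.68), 3d replicate 2 (0.0527), SN-011 replicate 1 (0.122) or SN-011 replicate 2 (0.145). T cell transcripts were thus seen in 3d replicates 1 and 2 and not above the SN-011 range in 3d replicate 3. Cd79b, a B cell receptor component, was at 0.578, 0.351 and 0.603 CPM against 2.15, 2.27 and 2.59 CPM (2.18 ± 0.37, adjusted p = 6.22e-04). Cd4 went against the other lymphocyte members, at 88.5, 82.9 and 51.1 CPM against 5.94, 16.9 and 20.1 CPM (-2.37 ± 0.34, adjusted p = 2.67e-04), and its sham mean was 88.7 ± 5.77 CPM (SD, n = 3).

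Complement, Fc receptor and antigen presentation genes were higher. Of 17 complement genes 12 rose and none fell (median 1.72), all 6 Fc receptor genes rose (median 2.19), and of 21 antigen presentation genes 15 rose and none fell (median 1.59). The antigen presentation count was 12 without 3d replicate 1 or 3d replicate 2 and 19 without 3d replicate 3. It was 11 without SN-011 replicate 1 or SN-011 replicate 2 and 10 in the fit of the 6 libraries alone. C1qa (chr4:136895917-136898803), a chain of the first complement component and a microglial product in brain, was at 99.2, 77.4 and 380.2 CPM against 1322, 865 and 1163 CPM (2.59 ± 0.50, adjusted p = 0.00139). C3, the component on which the pathways converge, was at 24.8, 22.9 and 24.7 CPM against 88.3, 67.8 and 38.4 CPM (1.42 ± 0.33, adjusted p = 0.00421), where sham stood at 1.94 ± 0.754 CPM and vehicle at 3.25 ± 1.58 CPM (SD, n = 3 each). The SN-011 libraries differed little for C3, all 3d libraries lay above them, and 3d replicate 3 was the lowest of its arm. C4b changed by 1.39 ± 0.41 (adjusted p = 0.0146, or 0.0553 without SN-011 replicate 1). C3ar1, the receptor for the C3a fragment, was at 9.65, 11.1 and 40.3 CPM against 134, 88.8 and 169 CPM (2.68 ± 0.46, adjusted p = 6.93e-04). Properdin, Cfp, which stabilises the alternative pathway, was at 17.4, 22.4 and 17.5 CPM against 17.2, 13 and 20.1 CPM, with an interval from -0.56 to 0.19.

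Fcer1g, the signalling chain shared by activating Fc receptors, was at 17.6, 13 and 50.5 CPM against 197, 179 and 192 CPM (2.81 ± 0.38, adjusted p = 1.98e-04). Fcgr3 and Fcgr4 changed by 2.27 ± 0.39 and 2.44 ± 0.44 (adjusted p = 6.84e-04 and 8.63e-04), and the inhibitory receptor gene Fcgr2b by 2.08 ± 0.44 (adjusted p = 0.00234). Activating and inhibitory receptors moved in the same direction. Tapbp, which loads peptide onto class I molecules, changed by 1.41 ± 0.23 (adjusted p = 5.16e-04), and Psmb8, a subunit of the immunoproteasome, by 2.21 ± 0.41 (adjusted p = 9.61e-04). The class I gene H2-K1 was at 97.5, 51.7 and 207 CPM against 427, 410.1 and 292 CPM (1.67 ± 0.39, adjusted p = 0.00421), although reads of the H2 genes can be shared between near-identical copies. H2-Ab1, a class II chain, was at 4.74, 2.75 and 5.81 CPM against 33.4, 13 and 5.76 CPM, high in 3d replicate 1 and within the SN-011 range in 3d replicate 3. Its call (adjusted p = 0.0139) was lost without 3d replicate 1 (0.103, log2 fold change 1.08 in place of 1.97) and without SN-011 replicate 2 (0.0615). Cd74, the class II invariant chain, showed the same order of 3d libraries, at 81.2, 29.7 and 9.43 CPM, and was not called (adjusted p = 0.0667).

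Most transcripts listed for the drug's target pathway and for other DNA sensors were higher in the 3d arm. Of 17 tested genes of the cGAS-STING pathway and other DNA sensors, 14 rose and none fell, with a median of 1.46. The number higher was 11 without SN-011 replicate 1, 15 without 3d replicate 3 or SN-011 replicate 3, and 11 in the fit of the 6 libraries alone. Relative to sham the list lay at 0.79, 0.35 and 1.47 on the log2 scale in the SN-011 arm and at 2.48, 2.31 and 2.06 in the 3d arm. Tmem173 (chr18:35733679-35740554), which encodes STING, was at 6.76, 5.44 and 14.8 CPM against 31.9, 28.8 and 12.3 CPM, with a sham mean of 4.06 ± 0.157 CPM and a vehicle mean of 4.21 ± 0.748 CPM (SD, n = 3 each). SN-011 replicate 3 exceeded 3d replicate 3, so the arms overlapped, and the change was called (1.43 ± 0.38, adjusted p = 0.00827, or 0.0529 in the fit of the 6 libraries alone). Cgas (chr9:78430526-78443237), the DNA sensor that makes STING's ligand, was at 2.20, 2.34 and 4.33 CPM against 9.47, 8.70 and 6.25 CPM (1.46 ± 0.34, adjusted p = 0.00421), without overlap.

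Other genes of the pathway and other DNA sensors differed in their calls, and the differences between genes were not tested. Tbk1, the kinase, was at 44.1, 46.6 and 42.5 CPM against 39.1, 39.3 and 60.1 CPM, with an interval from -0.28 to 0.39. Irf3, its substrate, was at 25.7, 23.8 and 27.5 CPM against 48.0, 32.1 and 34.0 CPM (0.57 ± 0.18, adjusted p = 0.0181), a call that was lost without 3d replicate 1 (0.0922, log2 fold change 0.37), SN-011 replicate 1 (0.0571) or SN-011 replicate 2 (0.0714). Ifnb1, which encodes interferon beta, had 0 counts in each of the 12 libraries, which allows up to 3 counts over an arm. Enpp1, the ectoenzyme that degrades the dinucleotide outside cells, was at 7.97, 7.31 and 12.3 CPM against 29.7, 16.1 and 38.5 CPM (1.61 ± 0.28, adjusted p = 7.78e-04). Aim2, a DNA sensor that assembles an inflammasome, was at 9.82, 8.48 and 16.9 CPM against 30.1, 30.5 and 33.1 CPM (1.41 ± 0.21, adjusted p = 3.46e-04). Tlr9, the endosomal receptor for DNA, changed by 1.65 ± 0.29 (adjusted p = 7.93e-04). These 3 genes were separated between the arms, with SN-011 replicate 3 highest in its arm each time.

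Of 46 interferon-stimulated genes, 37 rose and none fell, with a median of 1.58, and for 24 of them the arms did not overlap (background 24.6% higher without overlap). Relative to sham the list lay at 1.83, 0.56 and 2.53 on the log2 scale in the SN-011 arm and at 3.44, 3.77 and 2.63 in the 3d arm. SN-011 replicate 3 and 3d replicate 3 therefore stood at nearly the same level, and SN-011 replicate 2 was low. The count depended on the libraries used. It was 23 without 3d replicate 2, 20 without SN-011 replicate 1, 24 without SN-011 replicate 2, 42 without SN-011 replicate 3 and 18 in the fit of the 6 libraries alone.

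Stat2, part of the factor that binds the response element, was at 43.3, 35.6 and 56.4 CPM against 81.9, 100.2 and 72.3 CPM (0.91 ± 0.17, adjusted p = 9.80e-04). Ifitm3, an inhibitor of virus entry, was at 26.1, 14.4 and 42.4 CPM against 83.3, 132 and 83.9 CPM (1.85 ± 0.34, adjusted p = 9.47e-04), though the Ifitm genes are close copies. Mx1, an antiviral GTPase, had the largest change of the list, at 4.39, 0.994 and 11.3 CPM against 45.8, 35.6 and 23.5 CPM (2.65 ± 0.57, adjusted p = 0.00264). In these genes each 3d library lay above the SN-011 arm. Among the genes whose promoters are shown above, Ifit3 (chr19:34583531-34588731) was at 28.7, 7.37 and 40.1 CPM against 89.9, 128 and 44.3 CPM (1.79 ± 0.49, adjusted p = 0.0106, or 0.0552 in the fit of 6). Bst2 (chr8:71534255-71537456) was at 16.8, 9.24 and 33.5 CPM against 78.4, 90.0 and 49.3 CPM (1.87 ± 0.43, adjusted p = 0.00382). Oas1a (chr5:120896256-120907521) was at 3.93, 2.28 and 9.75 CPM against 21, 30 and 9.91 CPM (1.93 ± 0.53, adjusted p = 0.0104). In these 3 genes 3d replicate 2 was highest, and 3d replicate 3 lay just above SN-011 replicate 3 for Ifit3 and Oas1a.

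Isg15, a ubiquitin-like modifier, was at 6.99, 3.22 and 6.79 CPM against 15.2, 17.5 and 4.58 CPM, with 3d replicate 3 below 2 of the SN-011 libraries. Its call (1.13 ± 0.42, adjusted p = 0.0412) was lost without 3d replicate 1 (0.117), 3d replicate 2 (0.160), SN-011 replicate 1 (0.0600) or SN-011 replicate 2 (0.155). Cmpk2, a mitochondrial nucleotide kinase, was at 34.2, 24.6 and 35 CPM against 43.1, 45.1 and 28.3 CPM, with an interval from -0.10 to 0.73. Siglec1 (chr2:131069220-131086765), a sialic acid receptor of macrophages that interferon induces, was at 3.47, 5.32 and 9.32 CPM against 33.1, 24.3 and 47.9 CPM (2.54 ± 0.34, adjusted p = 1.85e-04), and here 3d replicate 3 was the highest library. Tgm1, a transglutaminase, changed by 2.43 ± 0.49 (adjusted p = 0.00164), and Lilrb4a, an inhibitory receptor with close paralogs, by 2.41 ± 0.51 (adjusted p = 0.00229).

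**Figure D4:**
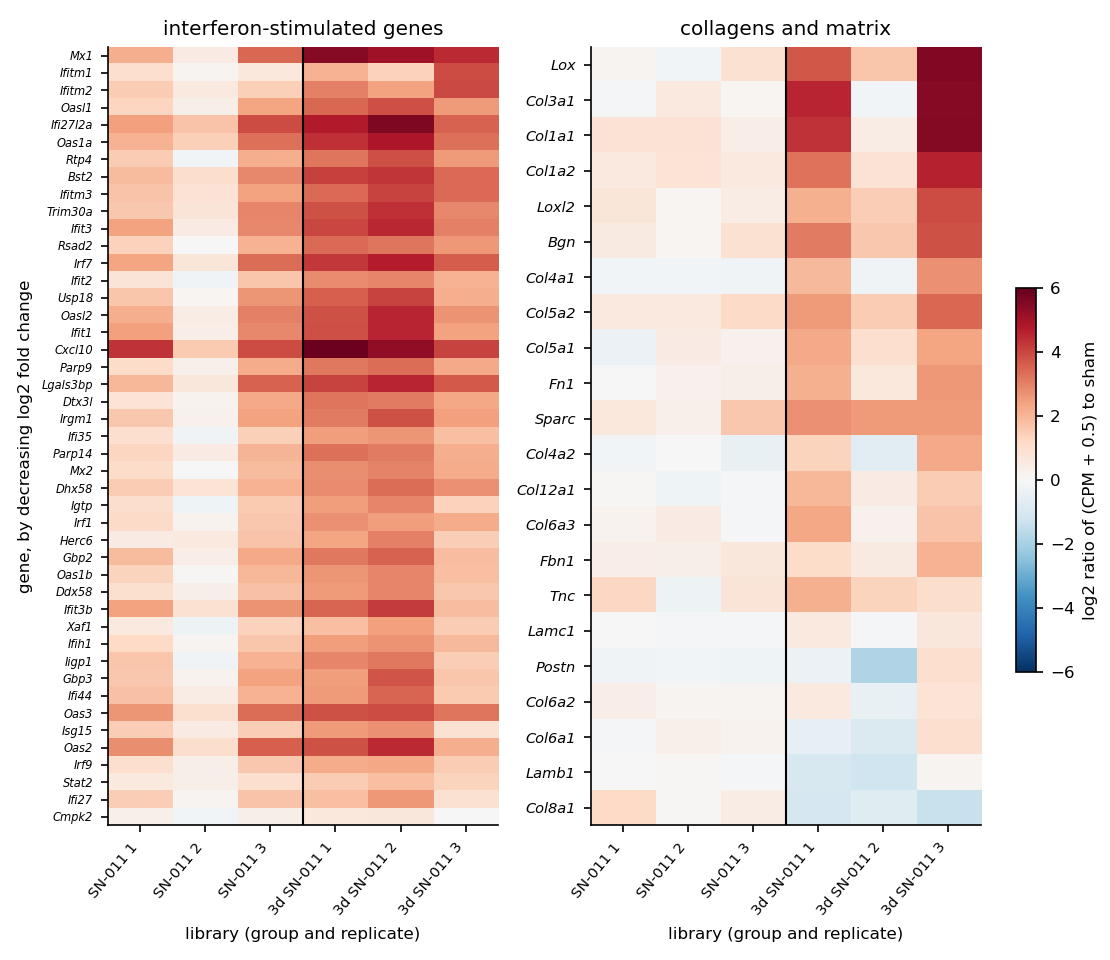
Heat map of log2 of (CPM + 0.5) over (sham mean + 0.5) in the 6 libraries compared, for 45 of 46 interferon-stimulated genes and 22 collagen and matrix genes, 1 column per library and 1 line per gene. Interferon-stimulated genes are lowest in SN-011 replicate 2 and similar in SN-011 replicate 3 and 3d replicate 3, while collagen genes are high in 3d replicates 1 and 3 and near the SN-011 level in 3d replicate 2.

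Of 25 cytokine and chemokine genes 16 rose and 1 fell (median 1.65), and in the fit of the 6 libraries alone 10 rose. Tgfb1 (chr7:25687002-25705077), transforming growth factor beta 1, was at 17.5, 12.5 and 34.9 CPM against 127, 74.1 and 115 CPM (2.28 ± 0.32, adjusted p = 2.53e-04), while its relative Tgfb2 was at 24.7, 18.5 and 22 CPM against 21.2, 27.0 and 17.9 CPM, with an interval from -0.43 to 0.48. Lif, a cytokine of the interleukin-6 family, was at 2.02, 1.35 and 3.12 CPM against 9.01, 12 and 6.57 CPM (2.08 ± 0.41, adjusted p = 0.00142). Csf1, a ligand of the microglial growth factor receptor, changed by 1.65 ± 0.34 (adjusted p = 0.00193). Cx3cl1, the fractalkine that neurons make, was the member that fell, from 936, 1094 and 655 CPM to 113, 211 and 249 CPM (-2.23 ± 0.26, adjusted p = 1.07e-04), while the gene of its microglial receptor, Cx3cr1, was at 109.9, 81.2 and 276 CPM against 681, 561 and 312 CPM (1.73 ± 0.38, adjusted p = 0.00280). Ligand and receptor thus moved in opposite directions in each 3d library.

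Several inflammatory mediators had values or calls that depended on single libraries. Ccl3, a chemokine, was at 0.982, 0.526 and 12 CPM against 32.5, 29.0 and 22.9 CPM (2.63 ± 0.76, adjusted p = 0.0132), and without SN-011 replicate 3 the log2 fold change was 5.2. Cxcl10, an interferon-induced attractant of T cells, was at 14, 1.64 and 10.4 CPM against 41.9, 28.2 and 11.5 CPM and overlapped. Its call (adjusted p = 0.0345) was lost without 3d replicate 1 (0.139), 3d replicate 2 (0.0641) or SN-011 replicate 2 (0.0611), and DESeq2 gave 0.0605. Tnf, tumour necrosis factor, was at 0.347, 0.117 and 0.822 CPM against 3.48, 1.29 and 2.53 CPM (2.47 ± 0.77, adjusted p = 0.0229), lost without 3d replicate 1 (0.0737), SN-011 replicate 1 (0.0844) or SN-011 replicate 2 (0.0866). Il1b was at 0.578, 0.175 and 0.712 CPM against 1.54, 1.38 and 0.269 CPM and Ccl2 at 2.60, 0.175 and 2.52 CPM against 5.17, 6.18 and 4.42 CPM, and neither was called (adjusted p = 0.203 and 0.0583).

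Genes of programmed cell death rose almost together, 26 of 27, with 1 lower and a median of 1.71. Casp8, the initiator caspase of death receptors, was at 5.66, 4.15 and 10.4 CPM against 31.7, 24.2 and 23.8 CPM (1.97 ± 0.29, adjusted p = 3.22e-04). Gsdmd, the pore protein of pyroptosis, was at 5.84, 4.68 and 13.9 CPM against 34.3, 24.3 and 21.7 CPM (1.72 ± 0.34, adjusted p = 0.00150), and Casp1, which cleaves it, changed by 2.28 ± 0.43 (adjusted p = 0.00108). Ripk3, the kinase of necroptosis, was at 0.636, 0.175 and 0.603 CPM against 3.84, 1.73 and 5.28 CPM (2.91 ± 0.52, adjusted p = 8.29e-04). Gsdme, a gasdermin that caspase-3 cleaves, was the member that fell (-0.87 ± 0.15, adjusted p = 7.53e-04). Genes that promote death and genes that restrain it were both among those that rose. Bak1 and Bid, which permeabilise mitochondria, changed by 1.40 ± 0.20 and 1.52 ± 0.22 (adjusted p = 2.41e-04 and 2.60e-04), and Mcl1, which opposes them, by 1.2 ± 0.18 (adjusted p = 3.21e-04).

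Astrocyte response genes rose. Of 26 reactive astrocyte genes 23 were higher and none lower (median 1.82), and the list lay at 2.01, 1.25 and 2.55 over sham on the log2 scale in the SN-011 arm and at 3.58, 3.61 and 3.74 in the 3d arm. As single libraries were left out, the number higher ran from 17 (without SN-011 replicate 2) to 22 (without 3d replicate 3). It was 17 in the fit of the 6 libraries alone. Srgn, a proteoglycan that macrophages also make, was at 8.26, 6.08 and 12.1 CPM against 35.5, 28.2 and 45.2 CPM (2.04 ± 0.25, adjusted p = 1.33e-04). Stat3, the transcription factor that drives scar formation, was at 92.6, 71.5 and 114 CPM against 199, 169 and 235 CPM (1.12 ± 0.16, adjusted p = 2.82e-04). Tm4sf1 changed by 1.33 ± 0.19 (adjusted p = 2.56e-04).

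Gfap (chr11:102887336-102900912), the intermediate filament of astrocytes, was at 1213, 413 and 3644 CPM against 6901, 8094 and 5055 CPM, from a sham mean of 107 ± 23.8 CPM and a vehicle mean of 253 ± 208 CPM (SD, n = 3 each). The arms did not overlap, but SN-011 replicate 3 was several times its arm's other libraries. The call (1.93 ± 0.67, adjusted p = 0.0313) was lost without 3d replicate 1 (0.0556), 3d replicate 2 (0.0709), SN-011 replicate 1 (0.111) or SN-011 replicate 2 (0.0795), and without SN-011 replicate 3 the log2 fold change was 3.03. Vim, vimentin, was at 276, 181 and 1187 CPM against 2243, 3425 and 1905 CPM (2.20 ± 0.56, adjusted p = 0.00640, with 3.46 without SN-011 replicate 3). Serpina3n, a protease inhibitor with close paralogs, was at 178, 105 and 430.1 CPM against 768, 909.5 and 1105 CPM (1.96 ± 0.58, adjusted p = 0.0151, or 0.0655 and 0.0613 without SN-011 replicate 1 or 2). Lcn2, lipocalin-2, an acute response gene, was at 25.3, 9.48 and 3.67 CPM against 7.32, 14.3 and 20.6 CPM. The arms overlapped for it, with SN-011 replicate 1 the highest library, and it was not called (adjusted p = 0.874).

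Transporters, channels and enzymes that astrocytes use at rest were higher in part. Of 19, 12 rose and none fell (median 0.60), and the count was 7 without SN-011 replicate 1, 7 without SN-011 replicate 2 and 4 in the fit of 6 libraries. Slc1a3, the glutamate transporter GLAST, was at 594, 547 and 814 CPM against 1131, 1396 and 1229.6 CPM (0.94 ± 0.16, adjusted p = 5.99e-04). Slc1a2, the transporter GLT-1 that clears most synaptic glutamate, was at 3397, 3319 and 3387 CPM against 2858, 3515 and 2989.9 CPM, with an interval from -0.44 to 0.22. The 2 glutamate transporters therefore differed in their calls, and the difference between them was not tested. Mlc1 and Fgfr3 changed by 1.13 ± 0.23 and 0.75 ± 0.16 (adjusted p = 0.00163 and 0.00252).

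Oligodendrocytes wrap axons in myelin. Of 18 myelin genes 7 rose, none fell and 13 had intervals within 1 log2 unit of 0 (median 0.39, or 0.24 without SN-011 replicate 2). The fit of 6 libraries called 3. Cldn11, a tight junction protein of myelin, was at 469, 288 and 507 CPM against 738, 718 and 762 CPM (0.81 ± 0.19, adjusted p = 0.00404). Mobp, a myelin protein, was at 1800.1, 1228 and 1514 CPM against 4103, 2003 and 3624 CPM (1.10 ± 0.26, adjusted p = 0.00412). Mbp, myelin basic protein, changed by 1.12 ± 0.27 (adjusted p = 0.00469, or 0.0670 in the fit of 6).

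Of 13 genes of oligodendrocyte precursors 9 rose and none fell (median 0.70), with 5 without SN-011 replicate 1, 4 without SN-011 replicate 2 and 2 in the fit of 6. Cspg4, the NG2 proteoglycan that pericytes also carry, was at 33.2, 36.1 and 39.6 CPM against 77.8, 53.1 and 89.6 CPM (1.02 ± 0.17, adjusted p = 5.20e-04). Bcas1, of newly forming oligodendrocytes, changed by 1.09 ± 0.20 (adjusted p = 9.13e-04). Gpr17, a receptor of committed precursors, was at 128, 92.0 and 142 CPM against 196, 137 and 56.6 CPM, which overlapped. Of 14 genes of neuroblasts from the subventricular zone next to the striatum, 6 rose and 3 fell (median 0.54, or 0.24 without 3d replicate 1). Those that fell were Dlx5 (-1.12 ± 0.16, adjusted p = 2.39e-04), Sp9 (-1.03 ± 0.18, adjusted p = 8.46e-04) and Dlx6 (-1.86 ± 0.45, adjusted p = 0.00475), transcription factors of inhibitory lineages. Cd24a was at 19.1, 26.8 and 33.1 CPM against 80.9, 48.6 and 79.3 CPM (1.40 ± 0.24, adjusted p = 7.03e-04). Doublecortin, Dcx, which marks migrating neuroblasts, was at 24.1, 47.3 and 50.6 CPM against 62.2, 31.2 and 35.2 CPM, with an interval from -0.55 to 0.70.

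Vessel genes rose in part. Of 19 endothelial and barrier genes 11 rose and none fell (median 0.79), of 14 adhesion and angiogenesis genes 7 rose and 1 fell (median 0.64), and of 17 mural cell and fibroblast genes 11 rose and none fell (median 1.02). The mural median was 0.59 without 3d replicate 1. Slc7a5, the large amino acid transporter of the barrier, was at 72.6, 58.4 and 78.2 CPM against 122, 115 and 124 CPM (0.79 ± 0.12, adjusted p = 3.00e-04). Vwf, von Willebrand factor, was at 40.3, 43.2 and 43.5 CPM against 176, 61.0 and 238 CPM (1.90 ± 0.34, adjusted p = 8.95e-04), lowest in 3d replicate 2. The receptor gene Flt1 was at 103, 91.8 and 86.9 CPM against 107, 94.7 and 78.9 CPM, with an interval from -0.28 to 0.26. Cldn5, the tight junction claudin of endothelium, was at 58.4, 42.1 and 33.3 CPM against 122, 35.1 and 96.5 CPM, and 3d replicate 2 lay within the SN-011 range. Its call (adjusted p = 0.0409) was lost without 3d replicate 1 (0.197, log2 fold change 0.56 in place of 0.92), 3d replicate 3 (0.0908), SN-011 replicate 2 (0.113) or SN-011 replicate 3 (0.120).

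Icam1, the adhesion molecule that holds leukocytes, was at 6.36, 2.40 and 13.7 CPM against 34.2, 30.9 and 24.1 CPM (1.99 ± 0.46, adjusted p = 0.00397). Angpt1, the ligand that steadies vessels through the TIE2 receptor, was at 2.89, 1.87 and 3.89 CPM against 16.2, 13.3 and 7.81 CPM (2.10 ± 0.35, adjusted p = 6.17e-04). Vegfa, the growth factor that drives sprouting and leak, was the vascular member that fell, from 111, 114 and 84.2 CPM to 50.4, 71.8 and 36.5 CPM (-0.96 ± 0.20, adjusted p = 0.00189). Kcnj8, a potassium channel subunit of pericytes, was at 5.08, 3.74 and 5.48 CPM against 11.2, 8.85 and 11.5 CPM (1.14 ± 0.21, adjusted p = 0.00103), and Col15a1 changed by 1.65 ± 0.35 (adjusted p = 0.00221, with 1.08 without 3d replicate 1). Myh11, of smooth muscle, was at 5.6, 5.15 and 2.96 CPM against 4.96, 3.36 and 5.44 CPM, with an interval from -0.55 to 0.56.

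Collagen and matrix genes split the 3d arm. Of 22, 17 rose and 1 fell (median 1.63), and the arms were separated for 9 of those higher. The list lay at 0.36, 0.26 and 0.42 over sham on the log2 scale in the SN-011 arm and at 1.93, 0.46 and 2.55 in the 3d arm, so that 3d replicate 2 stood at the SN-011 level. The count of members higher was 17 without 3d replicate 2, 14 without 3d replicate 3 or SN-011 replicate 2, and 12 in the fit of the 6 libraries alone. Col1a1 (chr11:94936224-94953042), the main chain of fibrillar collagen, was at 13.9, 13.9 and 10.1 CPM against 160.4, 10.3 and 362 CPM (3.82 ± 0.80, adjusted p = 0.00219). Col3a1 was at 3.81, 6.43 and 4.49 CPM against 106, 3.61 and 203 CPM (4.41 ± 0.91, adjusted p = 0.00198). Both collagens were far above the SN-011 arm in 3d replicates 1 and 3 and within or below its range in 3d replicate 2. The member that fell was Col8a1, a short-chain collagen of vessels (-1.77 ± 0.59, adjusted p = 0.0260), lost without 3d replicate 1 (0.0625), 3d replicate 3 (0.0644) or SN-011 replicate 1 (0.106). Bgn, biglycan, was at 21.8, 16.6 and 28.5 CPM against 133, 47.2 and 219 CPM (2.58 ± 0.41, adjusted p = 4.35e-04). Fn1, fibronectin, was at 66.8, 79.3 and 84.7 CPM against 296, 105 and 403 CPM (1.80 ± 0.34, adjusted p = 0.00108). Sparc, a matrix-binding glycoprotein that microglia also express, was at 306, 246 and 608 CPM against 1312, 1161 and 1169 CPM (1.65 ± 0.28, adjusted p = 6.34e-04), even across the 3d libraries. Fibroblast marker transcripts moved with the collagens: Lum was at 9.16, 1.33 and 18.7 CPM and Dcn at 22.4, 7.46 and 45 CPM in the 3d libraries against 1.39, 1.11 and 0.932 CPM and 6.53, 6.49 and 8.38 CPM in the SN-011 libraries. The log2 fold change of Dcn was 1.80, or 1.06 without 3d replicate 3. Their part in the collagen values was not tested.

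Of 18 matrix proteases and inhibitors 13 rose and none fell (median 1.31). Timp2, an inhibitor of metalloproteases, was at 323, 308 and 449.9 CPM against 741, 659 and 1010.2 CPM (1.16 ± 0.18, adjusted p = 4.35e-04). Plat, tissue plasminogen activator, the enzyme given as a clot-dissolving drug in stroke, was at 29.8, 25.6 and 33.8 CPM against 72.1, 52.1 and 109.8 CPM (1.39 ± 0.23, adjusted p = 5.11e-04). Mmp14 and Mmp2, a membrane protease and the gelatinase it activates, changed by 1.73 ± 0.30 and 1.75 ± 0.30 (adjusted p = 7.20e-04 and 6.96e-04). Proteases and their inhibitors rose together. Adamts4, an aggrecanase, was at 68.2, 52.1 and 67.5 CPM against 95.1, 62.6 and 60.7 CPM, with an interval from -0.19 to 0.62.

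**Figure D5:**
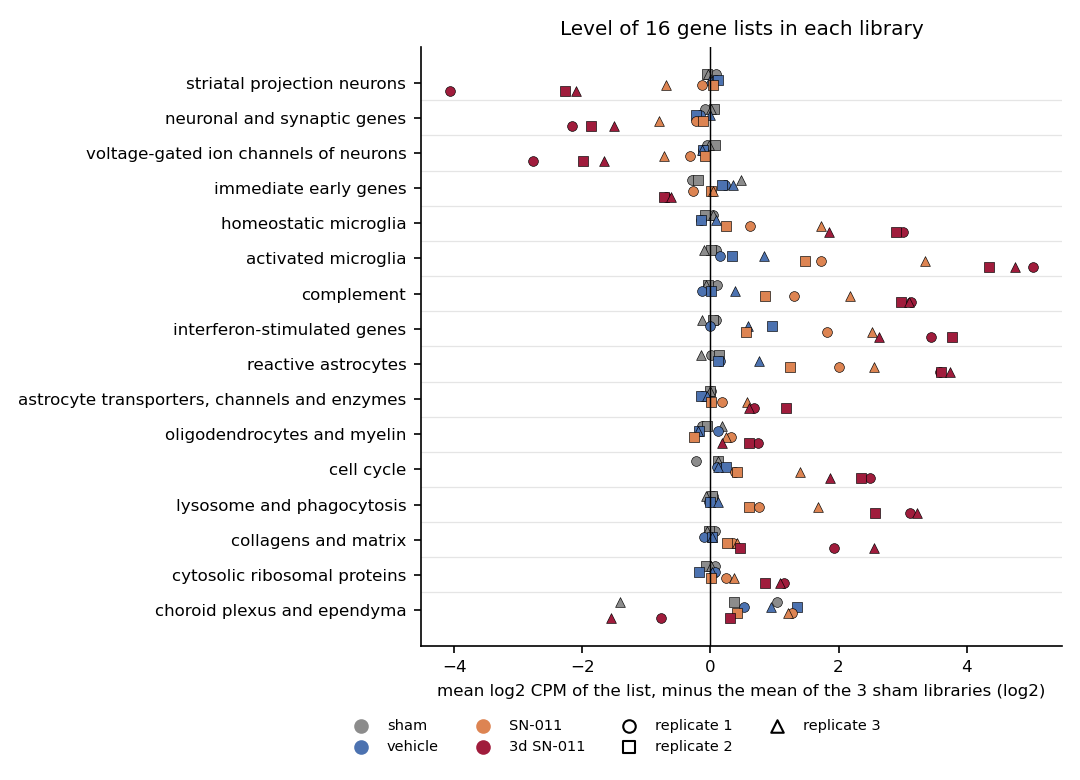
Mean log2 CPM of the tested members of 16 gene lists in each of the 12 libraries, as a difference from the mean of the 3 sham libraries, 1 row per list and 1 point per library. In most rows SN-011 replicate 3 lies between SN-011 replicates 1 and 2 and the 3d arm, and for collagens 3d replicate 2 (0.46) lies with the SN-011 arm.

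Cell cycle genes rose, 33 of 36 with none lower (median 1.56). The list lay at 0.39, 0.41 and 1.40 over sham on the log2 scale in the SN-011 arm and at 2.5, 2.35 and 1.87 in the 3d arm. Cdk1 (chr10:69335146-69352938), the mitotic kinase whose promoter is shown above, was at 3.35, 2.22 and 7.07 CPM against 25, 23.6 and 18.3 CPM (2.40 ± 0.35, adjusted p = 2.75e-04). Ube2c, shown beside it, was at 2.89, 3.45 and 8.77 CPM against 24.2, 24 and 14.2 CPM (2.04 ± 0.39, adjusted p = 0.00116). Mki67, the proliferation marker Ki-67, was at 14, 20.8 and 39.3 CPM against 98.0, 78.7 and 69.8 CPM (1.73 ± 0.30, adjusted p = 6.54e-04). All 3d values were above all SN-011 values in these 3 genes, and SN-011 replicate 3 was the highest of its arm. Pcna, the sliding clamp of DNA replication, changed by 0.96 ± 0.11 (adjusted p = 9.38e-05) and Uhrf1, which maintains DNA methylation, by 1.90 ± 0.25 (adjusted p = 1.83e-04). Top2a, the topoisomerase of mitotic chromosomes, was at 16.9, 20.7 and 42.1 CPM against 96.9, 88.1 and 40.5 CPM, so that 3d replicate 3 fell just below SN-011 replicate 3 (1.5 ± 0.38, adjusted p = 0.00641). Ccne2, cyclin E2, was at 4.39, 8.72 and 9.53 CPM against 6.60, 6.52 and 7.43 CPM, with an interval from -0.67 to 0.39. Cdkn2a, which encodes the p16 and p19 inhibitors, had 2, 2 and 2 counts in the SN-011 libraries and 51, 21 and 38 in the 3d libraries (3.97 ± 0.68, adjusted p = 6.56e-04).

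Lysosome and phagocytosis genes rose, 27 of 28 with none lower (median 1.85). Ctsd (chr7:142375911-142388038), cathepsin D, was at 438, 402 and 1865 CPM against 6916, 4135 and 5210.4 CPM (2.59 ± 0.50, adjusted p = 0.00128). Mertk, a receptor that engulfs dying cells, was at 53.3, 47.3 and 88.5 CPM against 156, 168 and 171 CPM (1.39 ± 0.19, adjusted p = 2.06e-04). Both were separated between the arms. Cd68, a lysosomal glycoprotein of phagocytes, changed by 2.67 ± 0.45 (adjusted p = 5.82e-04), and the cathepsin gene Ctsb by 2.20 ± 0.35 (adjusted p = 4.37e-04). Scarb1, a lipoprotein receptor, was the member not called, with an interval from 0.04 to 0.56.

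Of 16 genes of lipid efflux and apolipoproteins 14 rose and 1 fell (median 1.45). Of 21 genes of cholesterol synthesis and uptake none rose and 5 fell (median -0.16), with intervals within 1 log2 unit of 0 for 17, and the share lower was near the 22.9% over all genes tested. Those lower numbered 8 without 3d replicate 2. Apoe (chr7:19696109-19699188), the main lipid carrier of brain, was at 1866, 1491 and 3382 CPM against 12015, 6354 and 13889 CPM (2.26 ± 0.40, adjusted p = 7.95e-04). Plin2, the coat protein of lipid droplets, was at 16.5, 17.2 and 30.5 CPM against 194, 47.8 and 309.7 CPM (3.10 ± 0.50, adjusted p = 5.00e-04). Abca1, the exporter of cholesterol, was at 133, 113 and 340.1 CPM against 599, 601 and 595 CPM (1.62 ± 0.32, adjusted p = 0.00167). Each was higher in all 3 3d libraries. Abcg1, another exporter, was at 101, 106 and 98.0 CPM against 129, 93.1 and 134 CPM, with an interval from -0.06 to 0.50. Cyp46a1, a neuronal enzyme that hydroxylates cholesterol for removal, fell, from 291, 287 and 166 CPM to 49.1, 85.0 and 108 CPM (-1.62 ± 0.26, adjusted p = 4.53e-04). Srebf2, a transcriptional regulator of cholesterol synthesis, changed by -0.57 ± 0.12 (adjusted p = 0.00216). Pmvk, an enzyme of the pathway, was not called, with an interval from -0.40 to 0.43.

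Ribosomal protein genes rose in a narrow band: all 28 were higher without overlap, by 0.43 to 1.35 on the log2 scale (median 0.77). Rplp0, of the ribosomal stalk, was at 217, 182 and 288 CPM against 669, 504 and 582 CPM (1.35 ± 0.17, adjusted p = 1.38e-04). Processed pseudogenes can take reads from these genes. The length of the longest annotated transcript of each gene, averaged with counts as weights, was 4590 to 4809 bases in the SN-011 libraries and 4107 to 4188 in the 3d libraries. With offsets for GC content and length the list's median was 0.64 and 26 of 28 were called higher.

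Energy genes changed little. Of 27 nuclear genes of oxidative phosphorylation 7 fell, none rose and all 27 had intervals within 1 log2 unit of 0 (median -0.19). The share lower was near the 22.9% over all genes tested. The number lower was 11 without 3d replicate 2, 11 without SN-011 replicate 3 and 15 with offsets for GC content and length. Atp5b, a catalytic subunit of ATP synthase, was at 905, 847 and 711 CPM against 484, 627 and 562 CPM (-0.56 ± 0.14, adjusted p = 0.00636), and Ndufs1 and Ndufa4, of the respiratory chain, changed by -0.59 ± 0.14 and -0.50 ± 0.12 (adjusted p = 0.00403 and 0.00432). Of 13 genes encoded in mitochondria 1 fell, mt-Nd4l (-0.88 ± 0.31, adjusted p = 0.0336), a call lost without 3d replicate 1 (0.0971), 3d replicate 3 (0.0665), SN-011 replicate 1 (0.0566) or SN-011 replicate 2 (0.173, log2 fold change -0.58). Mitochondrial reads made up 4.67 to 5.46% of counts in the SN-011 libraries and 3.77 to 5.70% in the 3d libraries.

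Of 26 genes of hypoxia response and glycolysis 7 rose and 8 fell (median -0.13). Both shares were not far above those of all genes tested (23.6% higher and 22.9% lower). The number higher was 4 without 3d replicate 1 or 2, and 3 without SN-011 replicate 1 or 2. Pfkp, the platelet type of phosphofructokinase, was at 289.6, 318 and 236 CPM against 131, 181 and 123 CPM (-0.96 ± 0.16, adjusted p = 5.53e-04), and Ankrd37, a target of hypoxia-inducible factor, changed by -1.65 ± 0.24 (adjusted p = 3.11e-04). Another pair of its targets rose: Car9, a carbonic anhydrase, at 3.47, 3.39 and 3.89 CPM against 14.6, 7.12 and 8.94 CPM (1.51 ± 0.28, adjusted p = 0.00108), and Hk2, an inducible hexokinase, at 10.5, 8.01 and 28.3 CPM against 73.2, 51.2 and 36.4 CPM (1.78 ± 0.40, adjusted p = 0.00301). Ldha, lactate dehydrogenase A, was at 199, 199.99 and 185 CPM against 216, 181 and 176 CPM, with an interval from -0.26 to 0.21.

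Of 18 heat shock and folding stress genes 4 rose and 3 fell (median 0.04). Neither share exceeded that of all genes tested (23.6% higher and 22.9% lower). Those lower numbered 5 without 3d replicate 2 and 1 without SN-011 replicate 2. Hsph1, a large chaperone, fell from 273, 394 and 227 CPM to 102, 118 and 82.8 CPM (-1.56 ± 0.19, adjusted p = 1.25e-04), and Bag3, a co-chaperone of protein clearance, rose from 15, 12.2 and 22.1 CPM to 50.8, 33.9 and 50.9 CPM (1.46 ± 0.22, adjusted p = 3.56e-04). Xbp1, of the unfolded protein response, was not called, with an interval from -0.32 to 0.27. Of 20 genes of heme, iron, antioxidant and metal handling 13 rose and 2 fell (median 0.91). Ftl1, the light chain of the iron store ferritin, was at 199, 147 and 222 CPM against 1085, 380.5 and 1165 CPM (2.21 ± 0.33, adjusted p = 3.48e-04), and Cyba, a membrane subunit of the phagocyte oxidase, at 13.1, 9.24 and 34.0 CPM against 131, 79.3 and 173 CPM (2.76 ± 0.41, adjusted p = 3.13e-04). Gpx1, a glutathione peroxidase, changed by 1.01 ± 0.13 (adjusted p = 1.57e-04). Hmox1, heme oxygenase, was at 42.6, 21.4 and 17.1 CPM against 47.6, 44.2 and 86.7 CPM, and its call (adjusted p = 0.0179) was lost without 3d replicate 3 (0.0780), SN-011 replicate 2 (0.0761) or SN-011 replicate 3 (0.0573).

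Genes of tissue next to the striatum were read to describe the dissection. Of 17 choroid plexus and ependyma genes 10 fell and 5 rose (median -1.92), and the list varied between libraries of the same arm, at 1.27, 0.41 and 1.2 over sham on the log2 scale in the SN-011 arm and -0.77, 0.31 and -1.55 in the 3d arm. Ttr, the transthyretin that choroid plexus secretes, was at 2741, 909 and 2289 CPM against 95.1, 700.3 and 13.7 CPM and was not called (adjusted p = 0.0649), although the arms did not overlap. The number lower was 4 without 3d replicate 1, 6 without 3d replicate 3 and 3 without SN-011 replicate 1, which also left 3 higher, and limma with quality weights called 2 lower. The members that rose belong to ciliated ependyma or are shared with other cells: Foxj1, the regulator of motile cilia, was at 35, 32.3 and 44.9 CPM against 103, 63.1 and 76.8 CPM (1.12 ± 0.20, adjusted p = 8.84e-04), and Tmem212 and Rarres2 changed by 1.26 ± 0.26 and 1.04 ± 0.22 (adjusted p = 0.00206 and 0.00208). Of 12 genes of cortical projection neurons 1 rose, Rorb (0.83 ± 0.26, adjusted p = 0.0186), and 1 fell, Lamp5 (-1.54 ± 0.53, adjusted p = 0.0300). Both calls were lost without 3d replicate 2 (adjusted p = 0.0963 for Rorb and 0.0699 for Lamp5), SN-011 replicate 1 (adjusted p = 0.0872 and 0.0753) or SN-011 replicate 2 (adjusted p = 0.0818 and 0.0778), and the log2 fold changes were 0.50 for Rorb without 3d replicate 2 and -2.36 for Lamp5 without 3d replicate 3. Slc17a7, the vesicular glutamate transporter of cortex, was at 53.0, 117 and 48.1 CPM against 188, 33.5 and 118 CPM, varying within both arms. Of 9 thalamic genes 2 rose: Prkcd, a protein kinase C that other cells also express, at 23.7, 17.1 and 46.6 CPM against 98.5, 85.1 and 106 CPM (1.73 ± 0.27, adjusted p = 4.07e-04), and Tcf7l2, a Wnt pathway factor, at 11.3, 9.42 and 22 CPM against 29.6, 36.3 and 22.7 CPM (1.05 ± 0.28, adjusted p = 0.00828). The other 7 were not called, among them Zic1, a zinc finger factor (adjusted p = 0.811, or 0.0136 without 3d replicate 3). Hba-a1, a haemoglobin chain, was at 58.8, 68.4 and 44.7 CPM against 56.8, 41.4 and 10.7 CPM, lowest in 3d replicate 3. Of 5 red cell genes 1, Alas2, the heme synthesis enzyme of erythroid cells, was called lower (adjusted p = 0.0366, lost without any one of 3d replicates 1 and 3 and SN-011 replicates 1 and 2, with 0.0798, 0.0894, 0.0731 and 0.142). The part of the amount of neighbouring tissue in the other lists was not tested.

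The largest rises among called genes with separated arms and a mean of at least 1 CPM were mostly in genes of low count in the SN-011 arm, Spp1 apart, and summed over that arm 9 of these 10 had 1 to 65 counts. Serpina3m, a protease inhibitor whose reads can be shared with close paralogs, had 0, 0 and 1 counts against 12, 11 and 90, a ratio, scaled for library size, of 102 with a 95% counting interval of 17.9 to 4064. Apoc4, an apolipoprotein, had 0, 0 and 3 counts against 27, 12 and 90, a ratio of 38.8 (13 to 191), and DESeq2 did not call it (adjusted p = 0.119). For both genes 3d replicate 3 gave most of the counts, all counts of the SN-011 arm lay in SN-011 replicate 3 so that the arm was at 0 without it, and the intervals cover counting error only. Chil3, a chitinase-like protein of alternatively activated macrophages with close paralogs, was at 0.231, 0 and 0.493 CPM against 1.79, 0.989 and 16.8 CPM (4.69 ± 1.2, or 2.47 without 3d replicate 3). Ms4a4a, of a family of macrophage membrane proteins with close paralogs, was at 0.231, 0.351 and 0.0548 CPM against 2.56, 0.890 and 13.2 CPM (4.68 ± 0.95, or 2.99 without 3d replicate 3). Lox, which crosslinks collagen, was at 0.982, 0.702 and 1.97 CPM against 17.2, 3.76 and 62.4 CPM (4.49 ± 0.85, adjusted p = 0.00114). Lrg1, a glycoprotein of inflamed vessels, was at 0.867, 0.585 and 1.15 CPM against 9.72, 4.99 and 36.1 CPM (4.27 ± 0.65, adjusted p = 3.62e-04). In these 4 genes 3d replicate 3 was highest and 3d replicate 2 lowest of its arm. Tlr8, an endosomal RNA receptor, was at 0.0578, 0.468 and 0.0548 CPM against 4.04, 0.840 and 5.92 CPM (4.18 ± 0.82, adjusted p = 0.00145). Xlr4a, with near-identical copies on chromosome X, differed from these, being highest in 3d replicate 2 (0.0578, 0 and 0.164 CPM against 0.819, 5.34 and 0.592 CPM, log2 fold change 4.77, or 3.10 without that library). Spp1 and Cdkn2a, described above, complete the 10 largest rises.

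The 10 largest falls by the same rule did not include a gene of the projection neuron list. Gpr139, a G protein-coupled receptor of brain, was at 14.4, 17.3 and 3.62 CPM against 0.154, 1.09 and 0 CPM (-4.77 ± 0.74, adjusted p = 4.00e-04). Ankk1, a kinase gene next to Drd2, was at 15.5, 18 and 9.32 CPM against 1.07, 1.93 and 0.539 CPM (-3.58 ± 0.36, adjusted p = 6.99e-05). Ryr1, a calcium release channel, was at 199, 195 and 122 CPM against 5.99, 26.4 and 15 CPM (-3.45 ± 0.40, adjusted p = 1.05e-04). Separated arms were a condition of the rule. In all 3 genes SN-011 replicate 3 was the lowest of its arm, and for Gpr139 it stood at 3.62 CPM against 1.09 CPM in 3d replicate 2. Gpx6 had 65, 50 and 40 counts against 2, 5 and 0 (-4.55 ± 0.50, adjusted p = 8.84e-05). Fgf3, Trim71, Impg1 and Mei4 changed by -3.71 ± 0.45, -3.73 ± 0.52, -3.68 ± 0.64 and -3.44 ± 0.45 (adjusted p = 1.27e-04, 2.47e-04, 7.35e-04 and 1.81e-04). Tmem72, a membrane protein whose libraries followed the order of Ttr, was at 37.9, 16.6 and 28.5 CPM against 0.665, 6.08 and 0.377 CPM (-3.52 ± 0.97, or -5.70 without 3d replicate 2, and adjusted p = 0.146 in limma with quality weights), and Cdh3, a cadherin, changed by -3.96 ± 0.92 (adjusted p = 0.00398, or 0.108 in limma with quality weights).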

How the data were processed

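Polyadenylated RNA of mouse striatum was sequenced as read pairs on an Illumina HiSeq instrument, as the labels' protocols state. The deposited values were raw counts per gene, 1 column per library, which the authors made with HISAT2 and featureCounts against mm10, per the submitters' processing notes. The tool versions, the annotation and whether strand was used are not given in these sources, so reads of overlapping genes and of antisense partners cannot be told apart. Each library listed 54532 genes, 54409 of them with a symbol, and held 15806076 to 18622053 counts.

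The counts of all 12 libraries (4 arms of 3) were fitted with edgeR 4.0.16 in R 4.3.3 (TMM scaling, filterByExpr with a minimum count of 10, quasi-likelihood test), so that the arms share 1 estimate of spread. Quality weights from limma are lower where a library varies more. They were 1.75 to 2.50 for sham, 0.740 to 2.93 for vehicle, 0.385 to 2.95 for SN-011 and 0.216 to 0.475 for 3d. The shared estimate can thus be too small for the 3d arm, and standard errors and p-values with it. The contrast was 3d minus SN-011, with calls at an adjusted p (Benjamini-Hochberg) under 0.05. Log2 CPM used a prior count of 2, and CPM in the text had none. Genes without enough counts for the filter were not tested. DESeq2 1.42.0 and limma 3.58.1 served as alternatives, beside other scalings, filters, libraries and a fold threshold. The fit was tested on simulated data. Plots came from Python 3.11.15 with matplotlib 3.10.9.

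The arms, the 43 gene lists and the genes named were chosen with earlier results of these data known. Named genes were the 10 largest rises and the 10 largest falls that were called, had separated arms and averaged 1 CPM or more over the 6 libraries, the 3 called members of each list with the smallest adjusted p, the tested member with the smallest change whose interval lay within 1 log2 unit of 0, the STING pathway genes, and genes of earlier comparisons of SN-011, and other list members are named with their values. Some genes that this rule names are not reported here. Symbols were matched to GENCODE M21 (GRCm38), and of the names listed Gpr52 matched no gene.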

Additional observations from a re-analysis of the deposited data

How the results depend on the processing

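Between 6310 and 9307 genes were called when single libraries were left out (2981 to 4655 higher, 3329 to 4652 lower), lowest without SN-011 replicate 2. A fold threshold of 1 on the log2 scale left 1216 (487 higher, 729 lower), and the fit of the 6 libraries alone called 5831, of which 2743 were higher. With RLE scaling, no filter, DESeq2, limma with quality weights, and offsets for GC content and length, the numbers were 8608, 8198, 9065, 8460 and 8973, and 3 genes changed direction with the offsets. Deviations from the arm mean correlated at -0.12, -0.07 and -0.29 between same-numbered libraries, and no SN-011 library correlated best with its own number. The 3 deviations of an arm sum to 0, so these correlations cannot decide whether the replicate numbers pair the samples. With the replicate number as a block, 8142 genes were called over 12 libraries and 3173 over 6 (1442 higher, 1731 lower). Of the 43 list medians 31 were above 0, and between 29 and 31 when single libraries were left out. Over the alternatives 600 list medians moved by less than their spread, 43 moved more and 2 changed sign from a value larger than its spread, both of the immediate early genes, whose median ran from -1.10 without 3d replicate 3 to 0.02 without 3d replicate 2 and was 0.11 without SN-011 replicate 3 and 3d replicate 2 together, a setting chosen after the data were seen. Medians nearer 0 than their spread also changed sign under some alternatives, from 0.02 to as low as -0.19 for neuronal injury genes, from 0.04 to -0.07 for heat shock genes, from 0.36 to -0.14 for cortical neuron genes and from 0.10 to -0.09 for thalamic genes. Of the values of named genes under the alternatives 2719 kept direction and call, 162 lost the call, 14 gained one and 1 reversed, Zic1, at -0.52 without 3d replicate 3 (adjusted p = 0.0136), against 0.35 without 3d replicate 2. Lists with no member lower gained some when a library was left out: 1 in antigen presentation (without 3d replicate 1), 1 among reactive astrocyte genes (3d replicate 3), 2 among astrocyte transporters (3d replicate 2) and up to 2 in thalamus (3d replicate 2). With 3 libraries an arm, and counts under 10 in most libraries of some immune genes, neutrophil and T cell transcripts are limited by depth. The causes of these differences were not tested.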

Other observations

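The families described here were chosen after their values were seen, so their counts are descriptions and no evidence of direction. Of 11 Toll-like receptor genes tested 9 rose and none fell, with a median log2 fold change of 2.03. Without 3d replicate 2, 8 rose and 1 fell, Tlr5, a sensor of flagellin, at 0.404, 0.936 and 0.877 CPM in the SN-011 arm against 0.205, 1.83 and 0.108 CPM in the 3d arm (-0.04, or -2.19 without that library, adjusted p = 0.0380). Tlr7, an endosomal sensor of single-stranded RNA, was at 7.97, 5.97 and 23.7 CPM against 62.8, 56.7 and 95.7 CPM (2.51 ± 0.42, adjusted p = 5.72e-04 by edgeR's quasi-likelihood test). Tlr13, a sensor of bacterial ribosomal RNA, was at 5.49, 3.63 and 19.4 CPM against 51.1, 38.9 and 69.3 CPM (2.48 ± 0.47, adjusted p = 0.00116). Tlr3, the sensor of double-stranded RNA, was called (adjusted p = 0.0244) but not without 3d replicate 2 (0.136), SN-011 replicate 1 (0.100) or SN-011 replicate 2 (0.104). Of 6 Cd300 receptors 5 rose (median 2.71), and of 10 actin regulators of motile cells 9 rose (median 1.6), a count that held without any single library. Of 11 annexin genes 7 rose and none fell, with 5 higher without SN-011 replicate 1 or SN-011 replicate 2. Without SN-011 replicate 3 Anxa10 was called lower (-2.42, adjusted p = 0.0359, against -1.96 and 0.0884 with all libraries). Anxa1, a mediator that ends neutrophil recruitment, was at 1.16, 0.585 and 1.26 CPM against 7.06, 3.46 and 11.3 CPM (2.85 ± 0.51, adjusted p = 8.14e-04), and Anxa2, a plasminogen receptor subunit, at 15.5, 11.7 and 33.4 CPM against 109.7, 78.4 and 93.9 CPM (2.22 ± 0.30, adjusted p = 2.06e-04).

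The vacuolar ATPase acidifies lysosomes and synaptic vesicles, and of 18 subunit genes 4 rose and 10 fell (median -0.37), with 2 higher and 8 lower without SN-011 replicate 2. Over all genes tested 23.6% were higher and 22.9% lower. The pair of G subunit isoforms went opposite ways: Atp6v1g2, the neuronal form, was at 193, 180.2 and 139 CPM against 50.1, 76.9 and 112 CPM (-1.10 ± 0.23, adjusted p = 0.00196), and Atp6v1g1, the widespread form, at 54.2, 41.1 and 49.4 CPM against 90.7, 75.9 and 96.9 CPM (0.86 ± 0.13, adjusted p = 3.99e-04). Of 38 proteasome genes 9 rose and 2 fell (median 0.11), a share higher near that of all genes. Those higher numbered 4 without 3d replicate 3, 3 without SN-011 replicate 2 and 5 without SN-011 replicate 1 or SN-011 replicate 3, and those lower ran from 0 to 3 as single libraries were left out. The inducible subunit gene Psmb10 changed by 1.67 ± 0.30 (adjusted p = 8.16e-04) while most constitutive subunits had smaller changes. The 3 maternally expressed noncoding transcripts of the Dlk1-Dio3 locus tested fell in every fit that left out a library: Meg3 (3437, 3977 and 2769 CPM against 906, 1183 and 2407 CPM, -1.18 ± 0.30, adjusted p = 0.00653), Rian (-1.49 ± 0.21) and Mirg (-1.31 ± 0.22). By annotated type, 62 of 734 long intergenic noncoding genes were higher and 172 lower (8.45% and 23.4%), against 4065 and 3544 of 15110 protein-coding genes (26.9% and 23.5%). The overlap of noncoding transcripts with neighbouring genes, whose reads may be shared, was not tested.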
